A study of Mus musculus with 13 samples.

Results

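Deletion of Klf4 from Agrp-expressing cells was compared with control littermates in mice kept on chow. The comparison holds 6 of the 13 arcuate nucleus libraries of the series, chosen by the genotype and diet in their titles: 3 knockout (KO) libraries and 3 control libraries, each from 1 mouse of 20 weeks. KO mice came from a cross of Agrp-Cre with floxed Klf4, so that recombination depends on Agrp expression, past or present. The controls are named only as control littermates, and the sources used here do not say whether they carried Cre or the floxed allele. The other 7 libraries, 3 KO and 4 control, came from mice given 10 weeks of high-fat diet (HFD) and entered the fit, which shares its estimates of spread and of the sex term over all 13. RNA was total tissue RNA, and libraries were made with a SMART-Seq low-input kit, which primes on the poly(A) tail and does not mark strand.

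Klf4 encodes a zinc-finger transcription factor that binds GC-rich, CACCC-type sequences and can raise or lower transcription. AgRP neurons are a small population of the arcuate nucleus that drives feeding. They lie among POMC neurons, other peptide neurons, tanycytes (the cells that line the floor of the ventricle), glia and vessels. In such bulk tissue fewer cells of a type and less RNA per cell cannot be told apart, and a loss confined to AgRP neurons is diluted by all the other cells.

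Depth was 37.5 to 65.0 M counts in the KO libraries and 34.7 to 43.5 M in the controls, and between 30032 and 31252 genes had a read in each. Mitochondrial genes took 0.674 to 0.827% of counts and the 100 most abundant genes 13.9 to 14.6%. By Xist and Y-linked reads the KO group held 1 male (KO 1) and 2 females, while all 3 controls were male, including control 3, whose title has the letter F. A sex term taken from these reads was therefore part of the fit. On the KO side of the difference this term gives KO 1 a weight of 0.52 and KO 2 and KO 3 a weight of 0.24 each. Through the same term the HFD libraries enter the difference, with weights between -0.14 and 0.19. Without KO 1 the chow KO libraries are all female and the chow controls all male. Values given without KO 1 therefore rest on a sex term drawn from the HFD libraries, as genotype and sex then coincide on chow. The first principal component of the 6 libraries (48.8% of variance) placed KO 1 at -19.0, beside controls 2 and 3 at -14.3 and -13.8, and KO 2 and KO 3 at 25.8 and 19.6, with control 1 at 1.74.

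Klf4 itself was at 2.17, 3.07 and 2.72 counts per M counts of the library (CPM) in KO 1, 2 and 3 and at 3.21, 2.35 and 2.66 CPM in controls 1, 2 and 3. The groups overlapped, and the log2 fold change was -0.37 ± 0.44 (SE), with an edgeR adjusted p of 0.793. Without the sex term it was -0.05. The whole-gene count thus did not separate the genotypes, and it does not measure recombination in the Agrp-expressing cells. Near Agrp, genes such as Hsd11b2 and Atp6v0d1 (given last) did separate them. Hsd11b2, which encodes the enzyme that inactivates corticosterone, was at 69.4, 60.8 and 64.1 CPM in KO and at 0.895, 0.594 and 0.387 CPM in controls. Its log2 difference was 6.70 without the sex term and 6.81 in the male libraries alone. It was 4.04 without KO 1 (unadjusted edgeR p 0.148), where the sex term comes from the HFD libraries.

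Across all 23622 genes tested, no gene passed an edgeR adjusted p of 0.05 (0.0% called), and the smallest adjusted p was 0.340, shared by 921 genes. At an unadjusted p under 0.05 there were 1413 genes higher in KO (5.98%) and 1236 lower (5.23%), where an even spread of p over all genes gives 5% for both directions together. DESeq2 called 183 genes (81 higher and 102 lower), 1.31% of the 13981 genes to which it gave an adjusted p. On simulated counts with known changes DESeq2 made 26 false calls and edgeR made 3. Those counts took their spread from the trend with expression level and held no sex, dissection or length differences. The simulated rates may therefore not carry over to these libraries. In those simulations edgeR found 68% of 1-unit and 99% of 2-unit log2 changes. The changed genes were drawn only from those above a CPM floor, so these rates leave out the weakest genes. Most differences here were smaller, with a median size of 0.38 log2 units among the genes at p under 0.05. A change of more than 1 unit was found in 185 higher and 141 lower genes. Hsd11b2, at 5.93, was also not called by edgeR, so size alone did not decide the calls. With the 4 male libraries of the chow groups alone (KO 1 against 3 controls, in a fit of all male libraries) edgeR called 1 gene, Paip1, and 2568 had p under 0.05. The values below are described gene by gene and list by list, with these shares as the background.

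The promoters of the leading genes were searched for a KLF-type motif, since Klf4 was the gene deleted. The motif was GGGNGTGG, or CCACNCCC on the other strand. The window was 250 bases before to 50 after the RefSeq gene start (GRCm38.p6). Of the 12 higher genes with the smallest p, 10 matched the table and 6 held the motif. Of the 12 lower genes 10 matched and 3 held it. Of the tested genes 14055 matched by symbol and 25.3% held it. The share was 21.9% of the matched genes higher at p under 0.05 and 28.7% of those lower, while among DESeq2 calls it was 25.8% of the higher and 18.4% of the lower. Shown are 2 higher and 2 lower genes whose window holds it, 5′ to 3′ on the strand of the gene, with the motif in capitals. They are Resp18 at chr1:75278366-75278665 (minus), Txn1 at chr4:57956362-57956661 (minus), Cachd1 at chr4:100776429-100776728 (plus) and Btaf1 at chr19:36925829-36926128 (plus). A match is only a run of letters, not a measured binding site.
Resp18: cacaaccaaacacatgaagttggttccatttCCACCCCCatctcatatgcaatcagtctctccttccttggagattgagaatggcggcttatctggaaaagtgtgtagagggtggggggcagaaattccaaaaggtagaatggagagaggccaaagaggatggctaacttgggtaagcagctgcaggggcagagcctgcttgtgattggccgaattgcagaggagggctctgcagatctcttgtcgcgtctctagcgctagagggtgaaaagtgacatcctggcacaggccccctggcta
Txn1: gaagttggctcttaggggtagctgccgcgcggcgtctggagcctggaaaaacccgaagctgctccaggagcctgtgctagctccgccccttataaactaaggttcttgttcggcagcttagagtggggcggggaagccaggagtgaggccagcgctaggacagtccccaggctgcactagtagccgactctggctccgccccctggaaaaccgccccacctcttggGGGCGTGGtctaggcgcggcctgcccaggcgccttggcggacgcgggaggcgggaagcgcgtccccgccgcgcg
Cachd1: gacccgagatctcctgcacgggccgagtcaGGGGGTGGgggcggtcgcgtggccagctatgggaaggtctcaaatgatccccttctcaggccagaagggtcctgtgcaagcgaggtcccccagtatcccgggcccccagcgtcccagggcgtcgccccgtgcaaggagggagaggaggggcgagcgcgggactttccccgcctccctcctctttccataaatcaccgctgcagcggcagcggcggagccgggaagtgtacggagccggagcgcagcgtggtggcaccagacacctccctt
Btaf1: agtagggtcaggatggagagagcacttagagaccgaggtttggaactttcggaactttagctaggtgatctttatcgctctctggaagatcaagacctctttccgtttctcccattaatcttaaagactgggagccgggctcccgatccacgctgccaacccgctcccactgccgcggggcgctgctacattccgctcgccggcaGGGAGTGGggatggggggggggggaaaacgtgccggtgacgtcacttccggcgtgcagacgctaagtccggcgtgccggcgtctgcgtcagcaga

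The 24 genes with the smallest p, 12 in each direction, differed by modest amounts. The higher genes lay between 0.35 and 0.96 log2 units and the lower between -1.01 and -0.41. The groups did not overlap in 11 of the 12 higher and all 12 lower genes, where 10.1% of all genes tested were higher and 9.46% were lower without overlap. Because the genes were picked by their p, this is a description and no added support. All 24 had an edgeR adjusted p of 0.340, and DESeq2 called all 24. They kept their sign and an unadjusted p under 0.05 in all 28 other settings tried.

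Cotl1 had the smallest p of the higher genes. Cotl1 (chromosome 8, 119809222 to 119840544, minus strand) encodes an actin-binding protein. It was at 62.7, 62.5 and 38.7 CPM in KO and at 31.0, 28.2 and 33.3 CPM in controls. KO 3 was close to the controls, and the log2 fold change was 0.96 ± 0.17. Tmsb4x, the actin monomer-binding peptide thymosin beta 4, was at 589, 578 and 629 CPM in KO and at 417, 434 and 463 CPM in controls. Resp18 (chromosome 1, 75272199 to 75278415, minus strand), a protein of dense-core secretory granules in endocrine and peptide neurons, was at 847, 763 and 710 CPM in KO. In controls it was at 485, 591 and 607 CPM, a log2 difference of 0.58 ± 0.10. Each KO library was above each control for these genes. Spint2, an inhibitor of serine proteases at the cell surface, was at 149, 142 and 136 CPM in KO and at 102, 113 and 117 CPM in controls.

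The 12 higher genes also held Gpx3, Txn1 and Gstp1, members of the antioxidant list. Gpx3 (chromosome 11, 54902453 to 54910377, plus strand), a secreted selenium-dependent glutathione peroxidase, was at 700, 634 and 669 CPM in KO and at 448, 533 and 469 CPM in controls (0.62 ± 0.14). Txn1, the cytosolic thioredoxin, was at 100, 81.4 and 86.4 CPM against 64.8, 75.2 and 74.9 CPM (0.43 ± 0.09). Gstp1, a glutathione S-transferase, was at 199, 201 and 192 CPM against 150, 161 and 164 CPM (0.35 ± 0.08). The gaps between groups were narrow for Txn1 and wide for Gpx3. Txn1 lies 2.42 Mb from Klf4 on chromosome 4. Of the 49 tested genes within 5 Mb of Klf4, 5 were higher and 1 was lower at p under 0.05 (background 5.98% and 5.23%). Whether linkage to the floxed allele bears on this was not tested.

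The remaining higher genes have varied roles. Cdkl4, a cyclin-dependent kinase-like gene, differed by 0.66 ± 0.12 (0.43 without the sex term), and Mrps28, of the small mitochondrial ribosomal subunit, by 0.43 ± 0.09. Ten1, a subunit of the telomere-capping CST complex, differed by 0.40 ± 0.08, and Trappc2l, of the TRAPP vesicle-tethering complex, by 0.50 ± 0.11. Trappc2l is the 1 gene of the 12 whose groups overlapped, with KO 2 at 49.3 CPM and control 2 at 50.6 CPM. Gas5, a noncoding host of small nucleolar RNAs, was at 91.2, 91.0 and 92.7 CPM in KO and at 60.2, 75.7 and 68.6 CPM in controls (0.47 ± 0.10). Its KO libraries lay close together and its controls were spread.

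Among the lower genes the smallest p belonged to Fam171a2 (chromosome 11, 102436981 to 102447682, minus strand), a membrane protein gene. It was at 32.7, 33.9 and 33.1 CPM in KO and at 49.1, 44.2 and 48.3 CPM in controls, a log2 difference of -0.54 ± 0.09. Amot, the angiomotin of cell junctions that binds YAP in the Hippo pathway, was at 6.20, 7.61 and 6.51 CPM against 10.9, 11.0 and 11.6 CPM (-0.84 ± 0.14). For both genes the KO libraries differed little among themselves. Adarb1, an adenosine deaminase that edits RNA in neurons, was at 28.1, 31.9 and 31.1 CPM against 45.4, 55.0 and 49.6 CPM (-0.72 ± 0.14). Grm4, a presynaptic metabotropic glutamate receptor, was at 15.6, 19.8 and 16.9 CPM against 28.2, 31.5 and 27.1 CPM (-0.74 ± 0.16). Every control exceeded every KO library for Adarb1 and Grm4.

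The other 8 lower genes have varied roles. Cachd1, an auxiliary subunit of voltage-gated calcium channels, was at 41.2, 43.3 and 42.9 CPM in KO and at 52.9, 65.7 and 58.3 CPM in controls. Eml2, a microtubule-associated protein, differed by -0.41 ± 0.08, Wasf3, an activator of branched actin assembly, by -0.54 ± 0.11, and Cep152, a centriole duplication protein, by -0.83 ± 0.15 (-0.54 without the sex term). Apba1, a presynaptic adaptor (Mint1), differed by -0.55 ± 0.12 and Tmtc1, an endoplasmic reticulum mannosyltransferase, by -0.70 ± 0.14. Prrg3, a membrane protein with a Gla domain, differed by -0.61 ± 0.12. Btaf1, which removes TATA-binding protein from DNA, was at 18.3, 27.5 and 22.5 CPM in KO and at 47.3, 28.8 and 40.7 CPM in controls. Control 2 was barely above KO 2 for Btaf1, unlike the other genes of this group.

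**Figure D1:**
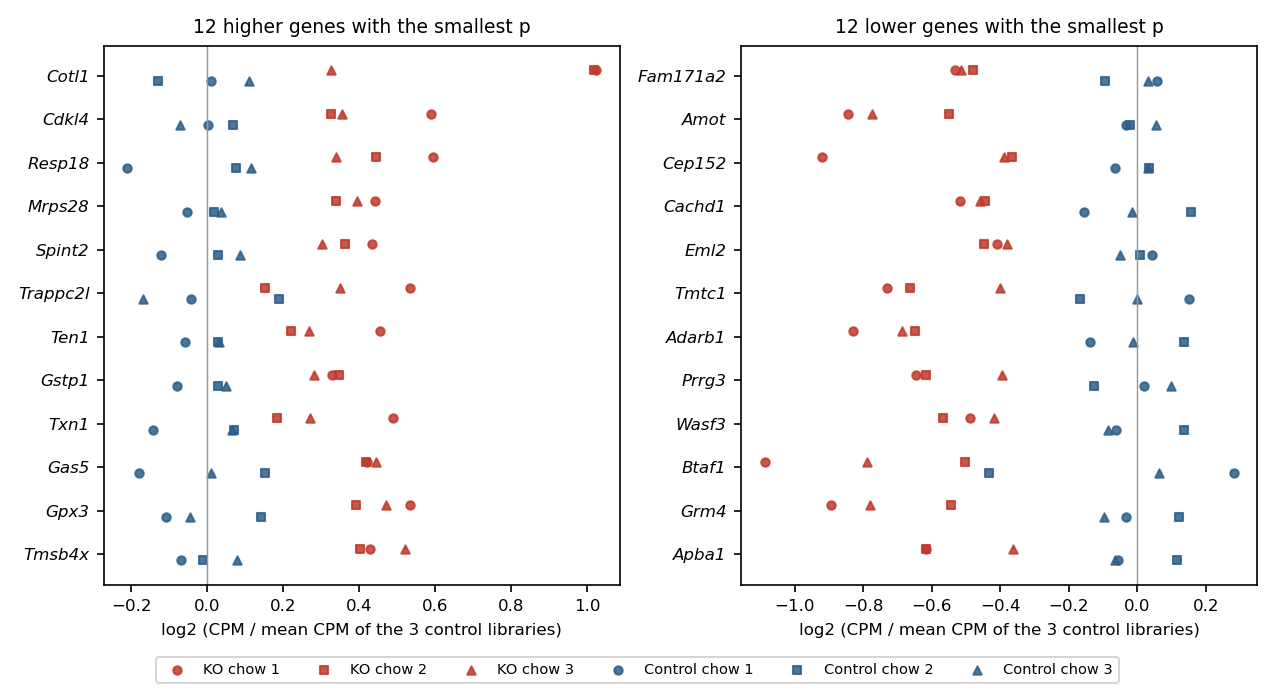
Level of the 24 genes with the smallest p in each of the 6 chow libraries, as log2 of CPM over the mean of the 3 controls (x axis), KO in red and control in blue, with a symbol for each replicate. Every gene but Trappc2l has its 3 KO points on one side of its 3 control points, and Cotl1 has KO 3 (38.7 CPM) nearer the controls than KO 1 and KO 2.

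Larger folds were found in genes whose difference had a larger SE, apart from Btaf1. Hsd11b2 had an SD of 4.30 CPM in KO and 0.26 CPM in controls, on means of 64.8 and 0.63 CPM. Besides Hsd11b2 (5.93 ± 1.89, DESeq2 adjusted p 0.0315), the 6 largest higher differences without overlap included Meltf, a transferrin-family iron-binding gene, at 2.45, 3.75 and 4.69 CPM in KO and at 1.16, 1.62 and 1.24 CPM in controls. Serpina3n, an acute-phase protease inhibitor made by glia, was at 142, 103 and 126 CPM against 87.7, 59.2 and 58.2 CPM (1.45 ± 0.45). Atf3, a stress-induced transcription factor, was at 4.86, 4.67 and 6.51 CPM against 2.54, 3.66 and 1.91 CPM (1.41 ± 0.55). Without the sex term the differences were 0.86 for Serpina3n and 0.98 for Atf3, with an unadjusted p of 0.107 and 0.0712. The others were Rgs22 (1.75 ± 0.52) and Shisal2b (1.53 ± 0.57). The lower side held Ctxn3, a small neuronal membrane protein, at 3.63 ± 1.64 CPM in KO and at 9.97 ± 6.53 in controls (SD, n = 3 each), a difference of -2.28 ± 0.49 that was -1.47 without the sex term. Control 2, at 17.5 CPM, stood far above the rest. It also held the ephrin receptor Epha8 (-1.61 ± 0.54), the granzyme gene Gzmk (-1.18 ± 0.35), the mitochondrial serine tRNA mt-Ts1 (-1.44 ± 0.39) and the inward-rectifier potassium channel Kcnj4 (2.82 ± 0.51 CPM in KO against 5.96 ± 2.09, SD), beside Btaf1. The edgeR adjusted p of all 12 was 0.340 or more.

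The pattern that ran through the whole comparison was gene length. Protein-coding genes were divided into 5 equal groups by the length deposited with the counts. From the shortest group (27 to 2331 bases) to the longest (7374 to 123179 bases) the median log2 fold change went 0.17, 0.07, 0.00, -0.06 and -0.14. In the shortest group 18.6% of genes were higher and 1.08% lower at p under 0.05, and in the longest 1.29% were higher and 16.2% lower. The median length was 1948 bases among all genes higher at p under 0.05 and 6633 bases among those lower, against 3157.5 bases over all genes tested. Among DESeq2 calls it was 1839 bases for the higher and 7846.5 for the lower genes.

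The gradient was also read library by library. In the shortest group the median deviation from the 6-library mean was 0.12, 0.09 and 0.05 log2 units in KO 1, 2 and 3 and -0.11, -0.04 and -0.09 in controls 1, 2 and 3. In the longest group it was -0.10, -0.08 and 0.00 in KO and 0.06, 0.06 and 0.07 in controls. The gradient was steepest in KO 1 and shallowest in KO 3. Over all genes the slope on length (log2 CPM per doubling of length) was -0.027, -0.015 and 0.0041 in KO 1, 2 and 3 and 0.017, 0.0076 and 0.014 in the controls, so that KO 3 did not slope down by this measure. Without KO 1 the shortest and longest groups differed between KO and control by 0.12 and -0.11, and in the male libraries alone by 0.20 and -0.15. On HFD, where KO and control libraries are others, the same length groups were at 0.02 and -0.02. The labels give no RNA integrity values, and the part of RNA quality or amplification in the gradient was not tested. The difference was therefore also fitted with each library's trend on length removed. This left 1182 genes higher and 863 lower at p under 0.05 and the shortest and longest groups at 0.08 and 0.00, and 1658 of the 2649 genes kept their direction and p under 0.05.

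**Figure D2:**
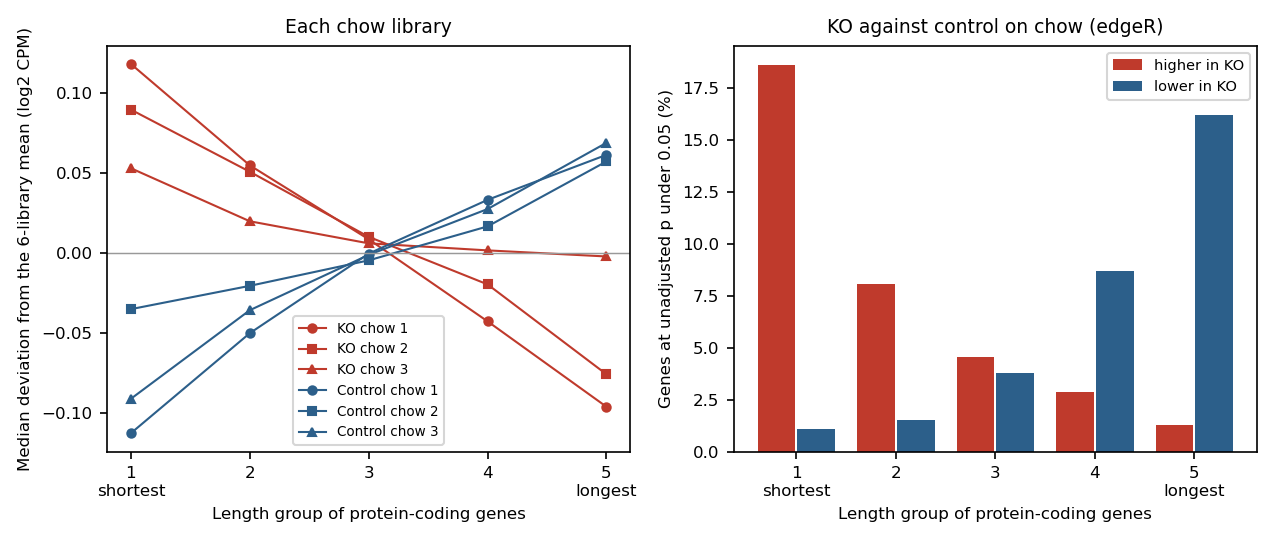
Left, median deviation of protein-coding genes from the mean of the 6 chow libraries (log2 CPM) in 5 groups by length, 1 line per library; right, percent of each group at an unadjusted p under 0.05 by edgeR, higher in KO (red) or lower (blue). The 3 KO lines slope down and the 3 control lines slope up, and the share of higher genes goes from 18.6% to 1.29% while the share of lower genes goes from 1.08% to 16.2%.

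The gene lists were read against this background, with the median after removal of the length trend beside each. That removal still left the shortest length group at 0.08, so medians of short-gene lists may keep part of the gradient. The lists and their members were chosen with results of these data known, so their counts describe and do not test. In the shortest length group 18.6% of genes were higher and 1.08% lower at p under 0.05, and in the longest 1.29% and 16.2%. The shares over all genes were 5.98% and 5.23%. Of the 30 lists, 12 had a median above 0 and 18 below, and the median of all genes tested was -0.0038. The per-library medians of the KO group lay wholly above the controls in 4 lists, wholly below in 7 and overlapped in 19. Of all single genes tested 10.1% were higher and 9.46% lower without overlap. The medians of the shortest and longest length groups also lay wholly above and wholly below the controls. Separation of a list of short or long genes is therefore not particular to that list. The HFD medians of the same lists were between -0.08 and 0.06.

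Proteasome subunits, which form the barrel and cap that degrade ubiquitin-tagged proteins, were higher in 31 of 31 members, with 13 at p under 0.05 and 0 lower (background 5.98% and 5.23%). Psmb2, of the catalytic core, was at 145, 129 and 131 CPM in KO and at 97.2, 121 and 105 CPM in controls (0.38 ± 0.10). Psma7, a ring subunit of the core, was at 183, 168 and 157 CPM against 134, 148 and 142 CPM (0.31 ± 0.08). The KO values were all above the controls, with KO 1 the highest for both genes. Over the list KO 1 stood at 0.21 log2 units above the 6-library mean, KO 2 at 0.05 and KO 3 at -0.03. The median was 0.18, with 0.13 after removal of the length trend and 0.05 without KO 1. With the trend removed 9 members were higher and 0 lower at p under 0.05.

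Ubiquitin ligases of large size, which tag those proteins, were lower in 25 of 25 members, 16 of them at p under 0.05. Hectd4 was at 81.1, 71.9 and 82.7 CPM in KO and at 109, 109 and 101 CPM in controls (-0.37 ± 0.09). Mycbp2, a ligase that shapes axons and synapses, was at 181, 159 and 194 CPM against 240, 235 and 248 CPM (-0.40 ± 0.12), and Birc6, an inhibitor of apoptosis with ligase activity, differed by -0.42 ± 0.13. These transcripts are long, with a list median of 12851 bases. The median was -0.25, with -0.08 after removal of the length trend and -0.19 without KO 1. With the trend removed 4 members were lower and 0 higher at p under 0.05.

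Antioxidant and selenoprotein genes kept most of their difference in each of these fits. Of 35 members 31 were higher, 14 at p under 0.05 and 0 lower at that level. Beside Gpx3, Txn1 and Gstp1, the peroxiredoxin Prdx1 was at 296, 323 and 322 CPM in KO and at 226, 259 and 234 CPM in controls (0.36 ± 0.10). The KO libraries stood at 0.10, 0.13 and 0.12 log2 units and the controls at -0.19, -0.08 and -0.09. No single KO library carried the list. The median was 0.21, with 0.17 after removal of the length trend, 0.22 without KO 1 and 0.25 in male libraries. With the trend removed 13 members were higher and 0 lower at p under 0.05. These genes are short, with a list median of 2106 bases, and the shortest length group kept 0.08 after that removal.

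Other lists of small, widely expressed proteins had positive medians that leaned on KO 1. Mitochondrial import genes were higher in 24 of 26 members, 7 at p under 0.05. Romo1, a small inner-membrane protein tied to reactive oxygen, was at 83.6, 68.7 and 70.7 CPM in KO and at 43.2, 65.0 and 54.0 CPM in controls. Their median was 0.18, with 0.14 after removal of the length trend and 0.06 without KO 1. Members of small nuclear ribonucleoproteins and the core spliceosome were higher in 27 of 33, with 8 higher and 1 lower at p under 0.05. The like-Sm protein gene Lsm4, of the U6 particle, was at 54.4, 56.3 and 46.9 CPM against 41.7, 41.1 and 38.6 CPM (0.40 ± 0.09). Their median was 0.19, with 0.14 after removal of the length trend and 0.09 without KO 1. Translation factors were higher in 30 of 38, with 12 higher and 2 lower at p under 0.05, and a median of 0.11 that was 0.13 after removal of the length trend and 0.04 without KO 1. Chaperonin and prefoldin genes, which fold actin and tubulin, were higher in 13 of 14, with 3 at p under 0.05. Their median of 0.13 was 0.17 after removal of the length trend and 0.04 without KO 1. With the trend removed 6, 5, 8 and 3 members of these lists, in this order, were higher at p under 0.05 and 0 lower.

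Histone and lysosomal genes were different in that KO 2 and KO 3 carried them more than KO 1. Histone and high-mobility-group genes were higher in 19 of 25 members, 7 at p under 0.05. H3f3a, which encodes the replacement histone H3.3, was at 113, 116 and 117 CPM in KO and at 99.6, 99.7 and 101 CPM in controls, a small difference of 0.20 ± 0.07 with tight groups. The list stood at 0.07, 0.18 and 0.12 log2 units in the KO libraries and below 0 in each control. Its median was 0.17, with 0.12 after removal of the length trend and 0.21 without KO 1. Lysosomal proteins were higher in 29 of 32, with 8 higher and 1 lower at p under 0.05. Ctsl, a cysteine protease, was at 165, 186 and 171 CPM against 128, 130 and 133 CPM (0.39 ± 0.11). Psap, the precursor of the saposins, went the other way, at 1210, 998 and 1296 CPM against 1569, 1402 and 1431 CPM (-0.37 ± 0.13). The list median was 0.10, with 0.15 after removal of the length trend and 0.24 without KO 1. Markers of microglia summed to 504, 681 and 676 CPM in KO and to 540, 420 and 461 CPM in controls, and their part in the lysosomal values was not tested.

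On the lower side were genes of neuronal shape and contact. Axon guidance genes were lower in 42 of 50 members, 14 at p under 0.05 and 0 higher. Robo1, the receptor for Slit proteins, was at 15.4, 21.7 and 22.2 CPM in KO and at 30.2, 23.2 and 24.6 CPM in controls (-0.71 ± 0.16). Without the sex term its difference was -0.40, with an unadjusted p of 0.0774. Efnb2, the membrane ligand ephrin-B2, was at 20.8, 19.8 and 25.5 CPM against 37.2, 41.8 and 26.7 CPM (-0.79 ± 0.18). Mical2, which oxidises actin filaments, was at 105, 77.6 and 78.1 CPM against 130, 131 and 115 CPM. All 3 genes were lower in each KO library than in each control, with narrow gaps for Robo1 (control 2 and KO 3) and Efnb2 (control 3 and KO 3). The median was -0.31, with -0.20 after removal of the length trend and -0.25 without KO 1. With the trend removed 5 members were lower and 0 higher at p under 0.05.

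Synaptic adhesion genes were lower in 33 of 37 members, 7 at p under 0.05. Tenm3, a teneurin that matches synaptic partners, was at 31.0, 29.6 and 37.1 CPM in KO and at 39.6, 62.5 and 42.2 CPM in controls (-0.74 ± 0.18). Flrt2, a latrophilin and Unc5 ligand, was at 14.2, 12.2 and 13.5 CPM against 26.9, 18.0 and 20.8 CPM (-0.86 ± 0.22). Their KO values were closer together than their control values. The list median was -0.26, with -0.16 after removal of the length trend and -0.30 without KO 1. With the trend removed 1 member was higher and 5 were lower at p under 0.05. Active zone and postsynaptic scaffold genes were lower in 30 of 30, 10 at p under 0.05, with Rims3 at -0.36 ± 0.10 and Dlg2, which encodes PSD-93, at -0.44 ± 0.13. Their median of -0.23 was -0.08 after removal of the length trend, and 4 members were then lower and 0 higher at p under 0.05. Microtubule and motor genes were lower in 30 of 41, with 1 higher and 8 lower at p under 0.05. Dync1h1, the heavy chain of cytoplasmic dynein, was at 134, 156 and 156 CPM in KO and at 196, 187 and 187 CPM in controls (-0.37 ± 0.10). The list median was -0.11, with -0.08 after removal of the length trend, -0.17 without KO 1 and -0.05 in male libraries. With the trend removed 6 members were lower and 0 higher at p under 0.05. The groups overlapped, with KO 1 at 0.024 log2 units and control 2 at 0.023, while KO 2 and KO 3 stood at -0.15 and -0.04.

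Chromatin regulators were lower in 41 of 48 members, 17 at p under 0.05, and their median was nearest to 0 of these lists once the length trend was removed. The chromodomain helicase gene Chd8 was at 20.4, 22.2 and 20.0 CPM in KO and at 27.3, 25.8 and 27.8 CPM in controls (-0.32 ± 0.10). Ehmt1, a histone H3 methyltransferase, was at 35.8, 35.3 and 38.4 CPM against 45.4, 40.7 and 43.7 CPM (-0.32 ± 0.09). The list median was -0.18, with -0.03 after removal of the length trend and -0.09 without KO 1. With the trend removed 1 member was higher and 5 were lower at p under 0.05. Calcium, MAP and PI3 kinase genes were lower in 36 of 39, 5 at p under 0.05, with Mtor, the growth-control kinase, at 84.9, 86.9 and 94.9 CPM against 133, 118 and 123 CPM (-0.49 ± 0.15). Their median of -0.19 was -0.10 after removal of the length trend, and 2 members were then higher and 3 lower at p under 0.05. Receptors for dopamine, opioids, acetylcholine, cannabinoids and noradrenaline were lower in 24 of 27, 3 at p under 0.05. Their median was -0.32, with -0.21 after removal of the length trend, and 3 members were then lower and 0 higher at p under 0.05. KO 1, 2 and 3 stood at 0.07, -0.28 and -0.20 log2 units and the controls at 0.23, 0.05 and 0.29. The groups thus overlapped, with KO 1 above control 2. Adra2a, the alpha-2A adrenergic receptor, was at 35.6, 36.7 and 35.5 CPM against 41.7, 51.4 and 38.3 CPM (-0.43 ± 0.12, and -0.29 without the sex term).

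**Figure D3:**
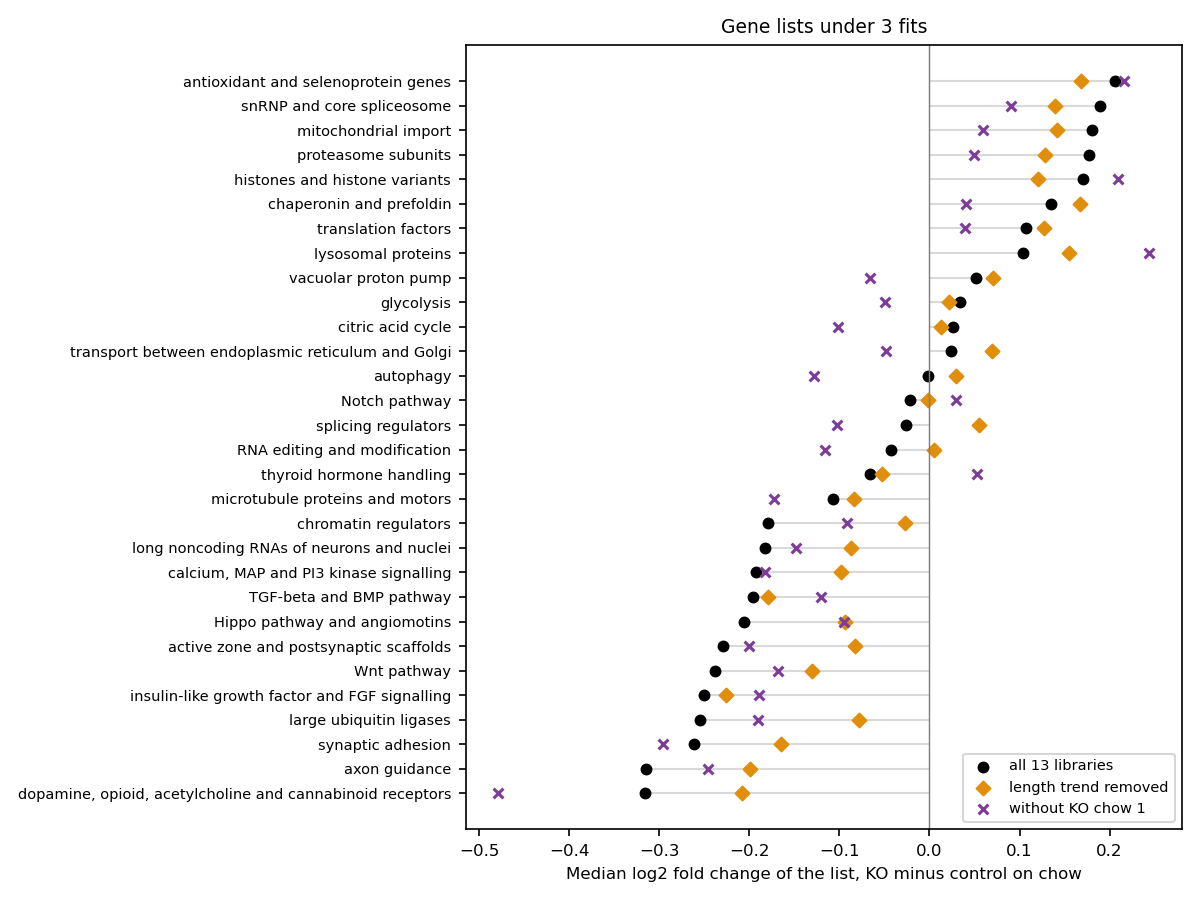
Median log2 fold change of 30 gene lists (KO minus control on chow, x axis) in the fit of all 13 libraries (black), with each library's length trend removed (orange) and without KO 1 (purple). Antioxidant genes stay near 0.2 in each fit, proteasome subunits go from 0.18 to 0.05 without KO 1, and large ubiquitin ligases go from -0.25 to -0.08 without the length trend.

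Growth-factor pathways had negative medians with few members at p under 0.05. Wnt pathway genes were lower in 34 of 43, 5 at p under 0.05, with the receptor Fzd1 at -0.56 ± 0.15 (-0.34 without the sex term). Their median of -0.24 was -0.13 without the sex term and -0.13 after removal of the length trend. TGF-beta and BMP genes were lower in 31 of 37, 2 at p under 0.05, and their median of -0.20 was -0.18 after removal of the length trend, -0.05 without the sex term, -0.12 without KO 1 and -0.09 without control 1. Hippo pathway genes were lower in 22 of 29, with 1 higher and 2 lower (Amot and Amotl1) at p under 0.05 and a median of -0.21 that was -0.06 without the sex term and -0.09 after removal of the length trend. Insulin-like growth factor and FGF genes were lower in 22 of 27, 3 at p under 0.05, with the receptor Igf2r, which also sorts lysosomal enzymes, at -0.45 ± 0.12. Their median of -0.25 was -0.23 after removal of the length trend and -0.16 without the sex term. For the TGF-beta, Hippo and FGF lists KO 1 was below each control while KO 2 and KO 3 were above the 6-library mean. Meningeal fibroblast markers, which express many of these genes, summed to 44.3 CPM in KO 1, 266 in KO 2 and 103 in KO 3, and to 362, 75.6 and 60.7 CPM in controls 1, 2 and 3. Their part in these medians was not tested.

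Other lists had medians near 0, some with members at p under 0.05 in both directions. Glycolysis genes had 0 of 18 members at p under 0.05 (median 0.03), and citric acid cycle genes 2 of 21, Sdhb and Sdhc, both higher (median 0.03). Notch pathway genes had 2 of 31, Psenen and Psen2 of the gamma-secretase complex, both higher (median -0.02). Thyroid hormone handling had 1 of 18, the coactivator Thrap3 (-0.28 ± 0.08). Autophagy genes were split, with 3 higher and 8 lower at p under 0.05 of 28. The initiating kinase Ulk1 was at 65.8, 70.4 and 71.9 CPM in KO and at 89.9, 87.1 and 84.5 CPM in controls. Genes of transport between endoplasmic reticulum and Golgi were split the other way, with 10 higher and 2 lower of 38. Among them the coat subunit Sec13 differed by 0.29 ± 0.08 and Trappc10, a large TRAPP subunit, by -0.52 ± 0.14. After removal of the length trend these 6 medians lay between -0.05 and 0.07. Without KO 1 the medians of glycolysis, citric acid cycle, vacuolar proton pump, endoplasmic reticulum to Golgi transport, Notch and thyroid lists took the other sign.

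Noncoding and RNA-processing genes gave mixed values. Of 16 long noncoding RNAs 1 was higher (Gas5) and 4 were lower at p under 0.05. Meg3, an imprinted noncoding RNA of neurons, was at 392, 339 and 350 CPM in KO and at 467, 598 and 502 CPM in controls (-0.40 ± 0.15). The list median of -0.18 was -0.09 after removal of the length trend. RNA editing and modification genes had 3 of 20 lower and 0 higher, with Adar, the broadly expressed editing enzyme, at 231, 206 and 218 CPM against 258, 251 and 286 CPM (-0.27 ± 0.11) beside Adarb1. Both editing enzymes were lower in each KO library than in each control. The list median of -0.04 was 0.01 after removal of the length trend. Splicing regulators had 1 higher and 3 lower of 39 (median -0.03), and their median was 0.05 after removal of the length trend.

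Summed marker levels of some cell types differed between the groups. Arcuate neuron markers, which include Pomc, Cartpt, Th and Sst, summed to 1515, 3453 and 2849 CPM in KO 1, 2 and 3 and to 1019, 1013 and 1026 CPM in controls. Tanycyte markers summed to 307, 570 and 437 CPM against 232, 268 and 228 CPM. Both sums were higher in each KO library than in each control. Of the 12 tanycyte markers 8 were higher and 4 lower in the fit, with 0 at p under 0.05. Only 3 of them were higher without overlap and 0 lower (background 10.1% and 9.46%). Of the 14 arcuate markers 13 were higher and 1 lower, with 5 higher at p under 0.05. Pomc, the largest part of the arcuate sum in KO 2 and KO 3, was at 367, 1738 and 1442 CPM in KO and at 377, 165 and 370 CPM in controls, so that KO 1 lay among the controls. General neuronal markers lay between 4556 and 5532 CPM in KO and between 5209 and 6191 CPM in controls. Cartpt, a peptide of POMC and other arcuate neurons, was at 482, 370 and 273 CPM in KO and at 171, 229 and 168 CPM in controls (1.34 ± 0.30, DESeq2 adjusted p 0.00209). Its log2 difference was 1.37 in the male libraries alone and 1.33 without KO 1. Th, which encodes tyrosine hydroxylase of dopamine neurons, was at 78.2, 246 and 216 CPM against 53.6, 57.1 and 54.2 CPM (1.25 ± 0.40).

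Several other marker sums set KO 2 and KO 3 apart from KO 1, while pituitary and vascular sums did not. Markers of the suprachiasmatic, paraventricular and supraoptic nuclei summed to 153 CPM in KO 1, 2882 in KO 2 and 4493 in KO 3, and to 1446, 115 and 235 CPM in controls. Oligodendrocyte markers summed to 2067, 8419 and 9024 CPM in KO and to 4245, 2756 and 4663 CPM in controls. Lateral hypothalamic and neighbouring markers went the other way, at 839, 261 and 251 CPM in KO and at 486, 923 and 799 CPM in controls. No marker of the 16 cell lists was without reads in all 6 libraries. Agrp (14.4, 49.8 and 44.6 CPM in KO; 7.54, 17.9 and 8.99 CPM in controls) and Npy (46.4, 182 and 138 CPM; 22.3, 76.6 and 37.3 CPM) were highest in KO 2 and KO 3, with overlap between the groups in KO 1 and control 2. The part of dissection in the single-gene differences was not tested.

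**Figure D4:**
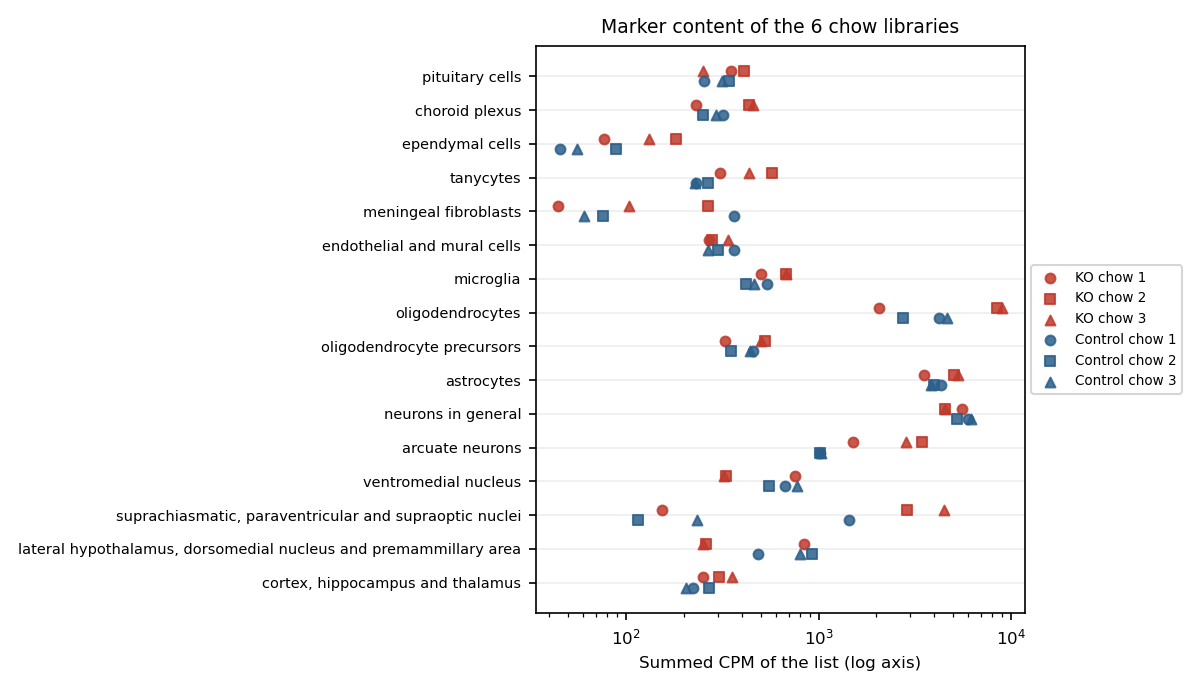
Summed CPM of 16 lists of cell type and region markers (log x axis) in each of the 6 chow libraries, KO in red and control in blue. Arcuate neuron and tanycyte sums are higher in all 3 KO libraries, and KO 2 and KO 3 stand together and apart from KO 1 for oligodendrocytes, the ventromedial nucleus and the paraventricular group.

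The chow differences were set beside those on HFD. The 12 higher genes lay between -0.11 and 0.17 log2 units on HFD, with 10 of 12 above 0 and 1 at an unadjusted p under 0.05. The 12 lower genes lay between -0.25 and 0.30, with 5 above 0 and 1 at p under 0.05. The genotype by diet interaction called 0 genes by edgeR, with 1271 at an unadjusted p under 0.05 and a smallest adjusted p of 0.877, so no gene's difference is shown to be particular to chow. Around Agrp, 9 of the 75 tested genes within 1 Mb were higher and 3 lower at p under 0.05 (background 5.98% and 5.23%). Atp6v0d1, the neighbour between Hsd11b2 and Agrp, was at 271, 272 and 268 CPM in KO and at 192, 197 and 199 CPM in controls (0.44 ± 0.13). On HFD the difference was 0.29 for Atp6v0d1 (unadjusted p 0.0202 by edgeR) and 2.57 for Hsd11b2 (unadjusted p 0.0992). Without replicate 3 of the HFD controls the chow difference of Hsd11b2 was 6.58 ± 0.45, beside 5.93 ± 1.89 with all libraries. The SE of Hsd11b2 thus depended on that library, and its HFD difference without that library was not computed.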

How the data were processed

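The authors deposited raw read counts per gene and library beside RPKM for 55421 identifiers. Per the submitters' processing notes the tools were edgeR, FastQC, STAR, STAR-Fusion and Subread, with mm10 as the build and no versions. Annotation release, strandedness and filtering of the reads were not given in the sources used here. Deposited RPKM equalled the count per kilobase of deposited length plus 1 base and per M counts, to a relative difference of 3.22e-13, so tests used the counts only. Identifiers matched GENCODE M21 for 54673 genes, all with the same start, and coordinates are from it (GRCm38).

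The test was the quasi-likelihood F test of edgeR 4.0.16 (in R 4.3.3, with limma 3.58.1), using TMM, robust dispersion and filterByExpr, on all 13 libraries with 4 groups and a sex term from Xist and 4 Y-linked genes. It left 23622 genes, 8 residual degrees of freedom, a median prior of 3.81 and a common biological coefficient of variation of 0.22. P-values were adjusted by Benjamini-Hochberg over all genes tested, with a threshold of 0.05. The SE beside an edgeR log2 fold change was derived from the test, as the size of the change over the square root of F. CPM is TMM-normalised, except marker sums, which use library totals, and log2 values per library add a prior count of 2. DESeq2 1.42.0 was run beside it, and both were tested on simulated counts. Libraries come from separate mice, by the tags in their titles, and differed by at least 14.96 (KO) and 17.49 (control) chi-square per degree of freedom, so none was counted as a repeat. One count equals 0.0154 to 0.0288 CPM on chow. With 3 against 3 mice an exact permutation test cannot go below p = 0.1, so none is given.

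Genes named are the 12 per direction with the smallest p, the 6 per direction with the largest fold among those at p under 0.05 without overlap, up to 4 per list by p, and Klf4, Agrp, Npy, Pomc, Hsd11b2 and Atp6v0d1, at a mean log2 CPM of at least 1. Predicted genes, pseudogenes, ribosomal protein genes, Xist and Y-linked genes were left out. The members, lists, rule and tests were chosen with earlier results of these data known. Of 1076 list genes 5 were not found in the table. Reads of genes that overlap on both strands cannot be separated, and the annotated Agrp model overlaps its neighbours. Promoters are from RefSeq. Alternatives were the sex term, libraries in the fit, normalization, low-count filter, tool, dispersion and a length offset.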

Additional observations from a re-analysis of the deposited data

How the results depend on the processing

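By edgeR 0 genes passed on chow in the main setting and in most others. The count was 1 with the 6 chow libraries alone (Hsd11b2), 10 when a sex term was added to that fit (Hsd11b2, Gabbr2, Snx25, Hcn2, Smad4, Atxn2, Gprin1, Selenon, Pik3ca and Gna12), 1 with male libraries only (Paip1) and 1 without both doubted libraries, Control_HFD replicate 3 and Control_Chow replicate 3 (Hsd11b2). Among the 6 chow libraries KO_Chow replicates 2 and 3 are the only females by reads. A sex term in that fit absorbs both, which leaves KO_Chow replicate 1 alone against the male controls. The male-only fit likewise holds KO_Chow replicate 1 as its only chow KO library. Calls in these settings rest on 1 KO mouse, and no conclusion on genotype is drawn from their number. DESeq2 called 183 genes and voom 0, with 2573 at an unadjusted p under 0.05. With 1 library left out it was 0 to 1: Hsd11b2 without Control_HFD replicate 3 and Cotl1 without KO_Chow replicate 3. Genes higher at an unadjusted p under 0.05 numbered 829 (without Control_Chow replicate 1) to 1701 (without Control_Chow replicate 2), and genes lower 947 to 1450. Every other setting stayed within 1.5 times of 1413 and 1236. Which genes were at that level varied more: without KO_Chow replicate 1, 1002 of the 2649 (37.8%) kept their direction and p under 0.05, with male libraries only 1252, and with DESeq2 2489. None of the 146 genes followed one by one changed sign in any setting, but 48 lost p under 0.05 without KO_Chow replicate 1 (among them Mtor, Chd8, Ulk1, Meg3, Romo1 and Hsd11b2, the last at 4.04), 54 with male libraries only and 34 with the length trend removed. The causes were not tested, and without KO_Chow replicate 1 genotype and sex coincide on chow. The size of Hsd11b2 was 5.93 with all libraries, 6.58 without Control_HFD replicate 3 and 6.70 with the 6 chow libraries alone and no sex term. Of the list medians 6 took the other sign without KO_Chow replicate 1 and 3 with the length trend removed. No paired analysis was possible because no animal tag in the titles is shared by KO and control mice on chow.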
